A study of Mus musculus with 5 samples.

Results

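The genes that open the cell cycle were compared in whole kidneys of mice aged 8 weeks, in 3 libraries from uninduced controls (control 0, 1 and 2) and 2 libraries labelled as Pkd1 knockouts (knockout 0 and 1). The set was fixed by gene symbol and held 10 genes, all found among the 23997 rows of the deposited table. They were the D cyclins Ccnd1, Ccnd2 and Ccnd3, the E cyclins Ccne1 and Ccne2, the kinases Cdk4 and Cdk6, and the inhibitors Cdkn1b, Cdkn1c and Cdkn2c. Of these, 8 passed a minimum mean of 1 FPKM over the 5 libraries and were tested, together with 12640 rows in all, and both E cyclins fell under it. FPKM scales the fragments of a gene to its transcript length and to the library's size, so levels of different genes can be set side by side. Pkd1 encodes polycystin-1, whose loss leads to kidney cysts. The mutants are called SKO in the titles and PkdTKO in the design text, and the sources used here give neither the deleting Cre and its promoter nor strain, sex or pooling.

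D cyclins are the part of the cell cycle engine that answers to growth signals. They bind CDK4 and CDK6, and the pairs phosphorylate the retinoblastoma protein RB, which then frees E2F transcription factors to switch on cyclin E and the genes of DNA replication. Cyclin E with CDK2 completes the step into S phase. The INK4 inhibitor p18, the product of Cdkn2c, binds CDK4 and CDK6 directly, whereas p27 (Cdkn1b) and p57 (Cdkn1c) bind cyclin and kinase together and block CDK2. Adult tubule cells seldom divide, and growth of the tubule epithelium is part of cyst formation.

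Several facts of the libraries bear on every comparison. Kidney markers were present, among them Wt1 of podocytes, Slc12a1 of the thick ascending limb and Aqp2 of the collecting duct, but some abundant genes, such as Gapdh in the controls and Lrp2 in all 5 libraries, were listed at exactly 0, and such rows were not read for direction. None of the 10 genes was at 0 anywhere. Pkd1 itself was at 3.22, 3.51 and 3.49 FPKM among controls, against 2.72 for the library labelled knockout 0 and 3.60 for that labelled knockout 1, so the labels could not be checked from its level. Together, 4 Y-linked genes stood at 39.1% of their control mean in knockout 0 and at 0.0234% in knockout 1, while Xist was at 0.0222 to 0.0275 FPKM among controls, then 30.75 and 80.3 for knockouts 0 and 1. RNA of both Xist and the Y-linked genes was thus present in knockout 0, whereas knockout 1 held Xist with almost no Y-linked RNA. Pooling of animals behind knockout 0 was not tested. The sex of the RNA and the genotype label therefore cannot be told apart in any result below. The tubule injury gene Havcr1 was at 137.4 FPKM in knockout 0 and at 0.593 to 1.12 in the other 4 libraries, so each knockout library is given on its own throughout. Whether libraries came from separate animals is not stated, and p-values measure only the spread between these samples. The size of the smallest values put the depth at roughly 89000000 to 210000000 fragments per library, lowest in knockout 0 and highest in knockout 1.

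Of the 8 tested genes, 2 rose in the knockout libraries and 0 fell, by limma with Benjamini-Hochberg adjustment over all 12640 rows at a threshold of 0.05. Both were D cyclins. In the same test 2.73% of all tested rows were called higher and 3.62% lower, 6.34% in either direction. After rescaling to TPM, 454 rows were called higher and 266 lower, against 345 and 457 here. Both knockout libraries lay above every control for 4 of the 8, against 21.9% of all rows. A further gene, Cdkn2c, was higher at an unadjusted p under 0.05, as were 12.5% of all rows. In knockout 0 alone, 2 of the 8 lay below every control, against 43.9% of all rows. The median log2 difference of the 8 genes was 0.18, against -0.016 for all tested rows. How many members were called depended on the fit, and so did the share of all rows called higher. That share was 1.27% with no filter, 3.19% at a mean FPKM of at least 5, 2.14% after quantile normalization and 0.198% once a term for the replicate number was added. It was 0.253%, 0.609% and 0.229% without control 0, 1 and 2, and 4.09% and 11.5% without knockout 0 and 1.

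**Figure D1:**
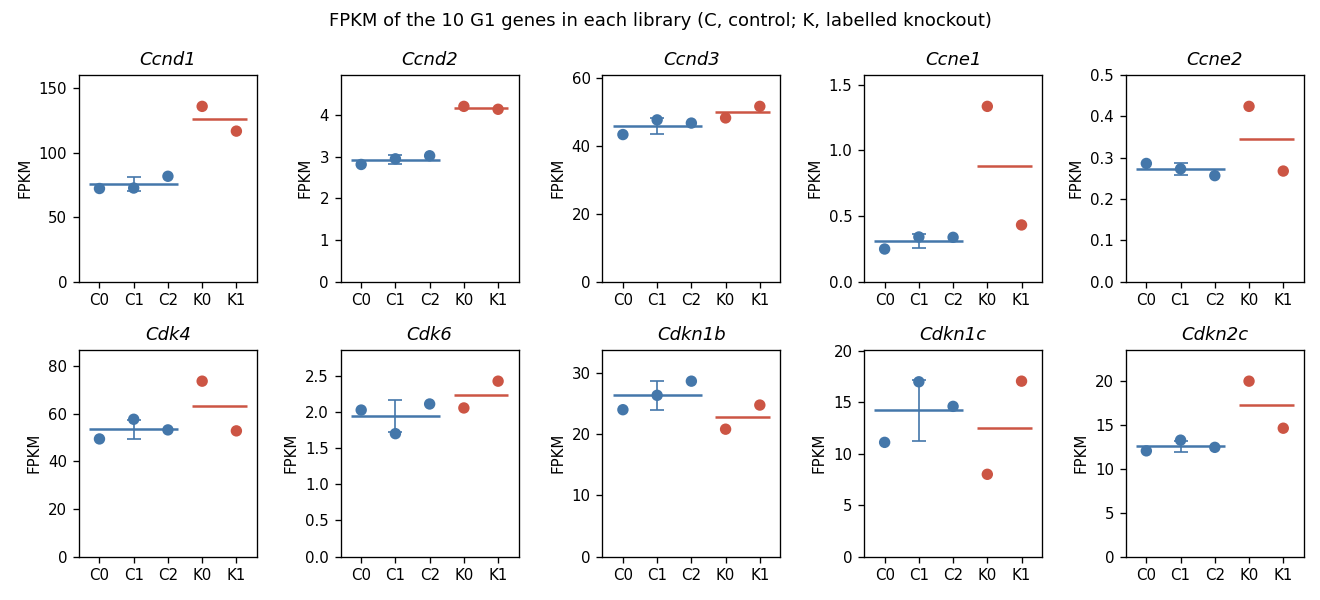
Expression of the 10 genes in each library, in FPKM on linear axes that start at 0. Points are single libraries, lines are group means and the bar on the controls is 1 SD (n = 3); both knockout libraries lie above all controls for Ccnd1, Ccnd2, Ccnd3, Ccne1 and Cdkn2c.

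Ccnd1, cyclin D1, was the most abundant of the 10 transcripts in every library. Its FPKM was 72.3, 72.7 and 81.8 for control 0, 1 and 2, against 136.0 (knockout 0) and 116.8 (knockout 1). Both knockout libraries stood clear of the controls, by 1.80-fold and 1.55-fold over the control mean of 75.6 ± 5.38 (SD, n = 3). The fitted log2 difference of log2(FPKM + 1) was 0.73 (SE 0.104, 95% interval 0.47 to 0.99, limma adjusted p = 0.0278). An exact two-sided permutation test of 3 against 2 libraries cannot go below p = 0.1, which is the value Ccnd1 gave. Knockout 1 alone against the controls gave a log2 difference of 0.62 (limma adjusted p = 0.0430), in a fit that takes its spread from the controls and assumes that the lone library varies like them. The call was lost without control 0, 1 or 2 (adjusted p = 0.139, 0.091 and 0.148). Ccnd1 lies on chromosome 7 from 144929931 to 144939925, minus strand (mm10, as are all positions here). In the annotation 23.4% of its exon bases are shared with exons of a gene on the opposite strand, listed in the table as Oraov1. Oraov1 was at 9.43, 10.6 and 9.87 FPKM among controls, then 9.74 and 9.23 for knockouts 0 and 1, which overlap.

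Ccnd2, cyclin D2, was far less abundant. Its FPKM was 2.81, 2.95 and 3.02 for control 0, 1 and 2, then 4.21 (knockout 0) and 4.14 (knockout 1). The 2 knockout libraries were nearly equal and both above every control, 1.44-fold and 1.41-fold over the control mean of 2.93 ± 0.106 (SD, n = 3). The log2 difference was 0.40 (SE 0.0759, 95% interval 0.21 to 0.59, limma adjusted p = 0.0464). This value sits close to the threshold, and the call was lost with no filter on low rows (adjusted p = 0.0893), after quantile normalization (0.0834), without knockout 0 (0.0503) and without any one control (0.129 to 0.212). Ccnd2 lies on chromosome 6 from 127125162 to 127152193, minus strand.

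Ccnd3, cyclin D3, was higher in both knockout libraries by a margin within the reach of the replicate error. Its FPKM was 43.3, 47.6 and 46.7 among controls, then 48.2 and 51.6 for knockouts 0 and 1. The groups did not overlap, but knockout 0 exceeded the highest control by very little. The log2 difference of 0.12 (SE 0.0781, 95% interval -0.08 to 0.32) missed the threshold, with limma's adjusted p at 0.361. Ccnd3 lies on chromosome 17 from 47505051 to 47599691, plus strand.

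The summed D cyclin level was higher in both knockout libraries, and Ccnd1 made up more of it. Summed FPKM of the 3 genes was 118.4, 123.2 and 131.5 among controls, against 188.4 (knockout 0) and 172.6 (knockout 1). Ccnd1 made up 61.0%, 58.95% and 62.2% of that sum among controls, against 72.2% (knockout 0) and 67.7% (knockout 1). Ccnd3 made up 35.5% to 38.65% among controls, against 25.6% (knockout 0) and 29.9% (knockout 1). The share of Ccnd2 stayed between 2.23% and 2.40% in the 5 libraries. These shares are given as values with no test.

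**Figure D2:**
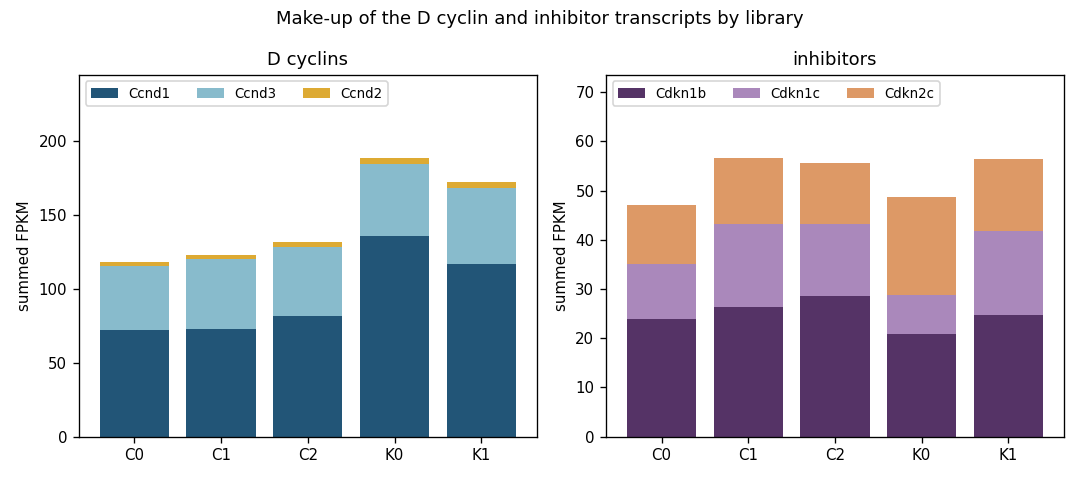
Summed FPKM of the D cyclins (left) and of the inhibitors (right) in each library, stacked by gene, with C for control and K for labelled knockout. Both knockout libraries hold more D cyclin transcript (188.4 and 172.6) than any control, mostly as Ccnd1. The sums of the 3 inhibitors of the set, which leave out Cdkn1a, lie between 47.1 and 56.6 in all libraries.

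The E cyclins were the rarest transcripts of the set. Ccne1, cyclin E1, had an FPKM of 0.249, 0.341 and 0.338 among controls, against 1.335 (knockout 0) and 0.432 (knockout 1). Knockout 0 stood 4.32-fold over the control mean and knockout 1 1.40-fold, with no overlap between the groups. Ccne2, cyclin E2, had 0.286, 0.273 and 0.257 among controls, against 0.4245 (knockout 0) and 0.268 (knockout 1). Knockout 0 was above and knockout 1 within the controls. Both genes failed the filter on low values. In the fit with no filter, on 19713 rows, the log2 differences were 0.48 for Ccne1 (SE 0.217, 95% interval -0.09 to 1.06, limma adjusted p = 0.259) and 0.08 for Ccne2 (SE 0.0538, -0.06 to 0.22, adjusted p = 0.427), on a scale that understates changes at such levels. By the same depth estimate about 72 to 240 fragments lay behind each library's value of Ccne1 and about 82 to 170 behind Ccne2. In the annotation 17.4% of the exon bases of Ccne2 are shared with Ints8 on the opposite strand, which had a higher FPKM (8.08 to 8.74), so the low values of Ccne2 are uncertain. Ccne1 lies on chromosome 7 from 38097984 to 38107534, minus strand, and Ccne2 on chromosome 4 from 11191351 to 11204779, plus strand.

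Mitotic transcripts also stood highest in knockout 0, where Ccne1 did. All 8 tested mitosis markers were above every control in knockout 0, against 34.2% of all tested rows, and 1 was in knockout 1, against 38.4%. Summed over 10 markers, their FPKM was 9.04 to 21.5 among controls, against 52.2 (knockout 0) and 18.8 (knockout 1). Mki67, which marks dividing cells, had 1.04, 2.34 and 1.66 among controls, against 5.70 (knockout 0) and 2.29 (knockout 1). None of the 8 passed limma's adjusted test, and 1 was higher by its unadjusted p at 0.05. Of the macrophage and myeloid markers, 7 of 7 tested lay above every control in both knockout libraries, against 21.9% of all rows, with a summed FPKM of 261.1 to 299.7 among controls, against 1312 (knockout 0) and 349.9 (knockout 1). None of these 8 macrophage markers was at 0. Other marker lists stood apart in knockout 0 too. Of 8 fibroblast and pericyte markers 7 lay above every control there, and their summed FPKM was 77.5 to 116.0 among controls, against 223.2 (knockout 0) and 116.1 (knockout 1). Of 7 tested tubule injury genes 7 lay above, with sums of 245.3 to 260.6 among controls, against 767.3 (knockout 0) and 192.3 (knockout 1). All 7 collecting duct markers lay below every control in knockout 0, where 43.9% of all rows did, with sums of 478.9 to 566.8 among controls, against 379.7 (knockout 0) and 534.5 (knockout 1). No gene of these 4 cell type and injury lists passed limma's adjusted test, and 6 were higher and 3 lower by its unadjusted p at 0.05. In bulk RNA, more cells of a type and more RNA per cell cannot be told apart, and the part of these cell types and of dividing or injured cells in the cyclin values was not tested.

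The 2 kinases did not pass. Cdk4 had an FPKM of 49.4, 57.6 and 53.2 among controls, against 73.6 (knockout 0) and 52.8 (knockout 1). Knockout 0 alone was above the controls and knockout 1 lay among them. The log2 difference was 0.22 (SE 0.157, 95% interval -0.17 to 0.62, limma adjusted p = 0.397). Without knockout 0 the same difference was -0.014. Cdk6 had 2.02, 1.70 and 2.11 among controls, against 2.05 (knockout 0) and 2.42 (knockout 1), with knockout 1 the highest. Its log2 difference was 0.14 (SE 0.113, 95% interval -0.15 to 0.42, adjusted p = 0.464). Cdk4 supplied 95.6% to 97.3% of the summed FPKM of the pair in the 5 libraries. Cdk4 lies on chromosome 10 from 127063534 to 127067920 and Cdk6 on chromosome 5 from 3341485 to 3531008, both on the plus strand. In the annotation 19.7% of the exon bases of Cdk4 are shared with Tspan31 on the opposite strand, at 67.1 to 77.9 FPKM in the 5 libraries, and lowest in the knockout libraries.

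Cdk4, Ccne1, Cdkn2c, Ccnd1, Ccnd2 and Ccne2 each had their highest value in knockout 0, and the promoter windows of the first 3 are shown for that reason. Each runs from 250 bases before the start site to 50 after it and comes from RefSeq (GRCm38.p6, the assembly of mm10), which held windows for 6 of the 10 genes and none for Ccnd1, Ccnd2, Ccne2 and Cdkn1c. For Cdk4 the capitals mark CACGTG, the E-box to which MYC and related factors bind. The window lies at chr10:127063285-127063584, plus strand.
Cdk4: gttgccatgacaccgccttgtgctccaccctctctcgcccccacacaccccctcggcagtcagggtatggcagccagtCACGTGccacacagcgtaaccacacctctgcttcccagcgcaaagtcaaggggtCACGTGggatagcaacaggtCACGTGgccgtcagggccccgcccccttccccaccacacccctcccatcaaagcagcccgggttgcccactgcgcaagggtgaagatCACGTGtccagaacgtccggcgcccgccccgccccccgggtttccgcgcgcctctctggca
For Ccne1 and Cdkn2c the capitals mark the GC box GGGCGG or its reverse complement. Their windows lie at chr7:38107441-38107740 and, for the upstream start of Cdkn2c, at chr4:109666707-109667006, both on the minus strand.
Ccne1: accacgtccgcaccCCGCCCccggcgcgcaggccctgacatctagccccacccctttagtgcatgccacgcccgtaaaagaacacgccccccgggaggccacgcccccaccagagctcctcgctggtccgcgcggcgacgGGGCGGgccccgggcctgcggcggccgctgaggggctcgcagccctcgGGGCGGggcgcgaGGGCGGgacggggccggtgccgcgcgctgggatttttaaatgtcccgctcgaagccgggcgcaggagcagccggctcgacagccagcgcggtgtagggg
Cdkn2c: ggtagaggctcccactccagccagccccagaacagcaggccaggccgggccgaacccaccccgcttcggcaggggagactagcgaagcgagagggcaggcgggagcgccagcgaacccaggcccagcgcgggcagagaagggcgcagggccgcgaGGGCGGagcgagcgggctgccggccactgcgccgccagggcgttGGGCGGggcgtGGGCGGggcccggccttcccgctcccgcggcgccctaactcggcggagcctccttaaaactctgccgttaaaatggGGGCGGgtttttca

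The Cdk4 window held 4 E-boxes, and the Cdk6 window and the downstream Cdkn2c window held 1 each, so that 3 of the 8 windows had at least 1. Among 32851 windows of the same length 7.15% held at least 1, and 8 windows (0.0244%) held at least 4. The Ccne1 window and the upstream Cdkn2c window held 4 GC boxes each, and 5.49% of all windows held at least 4. At least 1 GC box was in 6 of the 8 windows, against 35.7% of all windows, with 3 for Cdk4, 2 in each window of Ccnd3, 1 for Cdkn1b and 0 in the downstream Cdkn2c window and that of Cdk6. The E2F words TTTCGCGC, TTTGGCGC, TTTCCCGC and TTTGCCGC (2.26% of all windows) and the AP-1 word TGANTCA (7.81%) were also searched on both strands, and none of the 8 windows of the 6 genes held either. The matches in capitals do not overlap each other, and each describes letters only. The count of 4 E-boxes was singled out after it was seen. Myc, whose product binds E-boxes, had an FPKM of 7.49, 3.04 and 6.08 among controls, against 11.2 (knockout 0) and 5.71 (knockout 1). Knockout 0 lay above every control, where 34.2% of all tested rows did, and knockout 1 lay among the controls (limma adjusted p = 0.413). Among controls Myc was highest in control 0 and lowest in control 1, the reverse of Cdk4. Any link between Myc and Cdk4 was not tested.

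**Figure D3:**
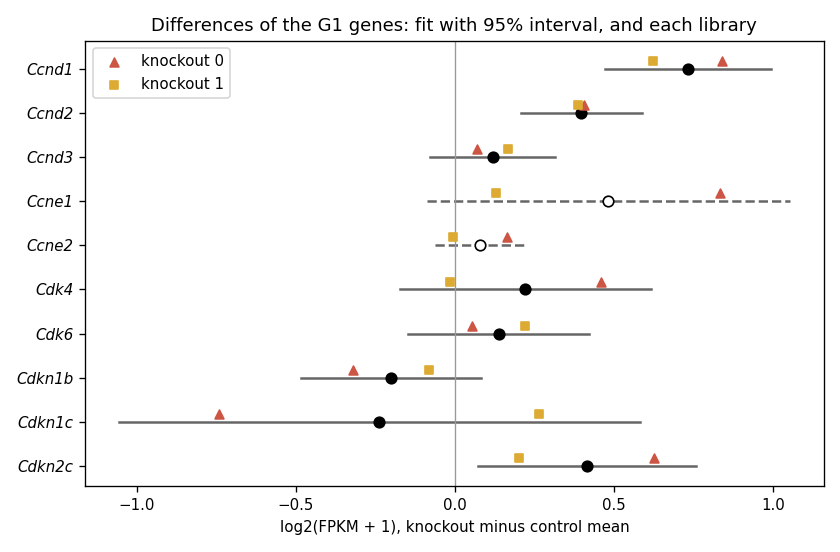
Difference from the control mean on the log2(FPKM + 1) scale for each gene. Circles and lines are the limma fit with its 95% interval, open circles with dashed lines are the 2 genes fitted only with no filter, triangles are knockout 0 and squares knockout 1; the adjusted test was passed by Ccnd1 and Ccnd2.

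Among the inhibitors, Cdkn2c was higher and did not pass. Its FPKM was 12.0, 13.3 and 12.4 among controls, against 19.98 (knockout 0) and 14.6 (knockout 1). The groups did not overlap, with knockout 0 1.59-fold and knockout 1 1.16-fold over the control mean of 12.6 ± 0.620 (SD, n = 3). The log2 difference was 0.42 (SE 0.137, 95% interval 0.07 to 0.76, limma adjusted p = 0.124). Against the same controls knockout 0 alone gave 0.63 (adjusted p = 0.0146) and knockout 1 alone 0.20 (adjusted p = 0.167). In the fit of knockout 0 alone, which assumes that a lone library varies like the controls, 11.5% of all rows were called higher. Cdkn2c lies on chromosome 4 from 109660876 to 109667189, minus strand.

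Cdkn1b, which encodes p27 and is controlled largely through the turnover of its protein, had an FPKM of 23.97, 26.3 and 28.6 among controls, against 20.8 (knockout 0) and 24.7 (knockout 1). Knockout 0 was below every control and knockout 1 among them. The log2 difference of -0.20 (SE 0.113, 95% interval -0.485 to 0.08) missed the threshold at an adjusted p of 0.291 by limma. Cdkn1b lies on chromosome 6 from 134920401 to 134925513, plus strand.

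Cdkn1c, an imprinted gene whose product p57 marks mature podocytes in the kidney, differed in opposite directions in the 2 knockout libraries. Its FPKM was 11.1, 16.99 and 14.6 among controls, against 7.995 (knockout 0) and 17.05 (knockout 1). Knockout 0 was below every control and knockout 1 just above the highest one. The log2 difference was -0.24 with a wide error (SE 0.327, 95% interval -1.06 to 0.58, limma adjusted p = 0.671), and it was 0.26 without knockout 0. Cdkn1c lies on chromosome 7 from 143458339 to 143461050, minus strand, and 30.7% of its exon bases are shared with an annotated antisense transcript.

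Podocyte markers moved with Cdkn1c from library to library, controls included. Divided by its control mean, Cdkn1c was at 0.780, 1.19 and 1.03 in control 0, 1 and 2, at 0.562 in knockout 0 and at 1.20 in knockout 1. The median of 8 podocyte markers on the same scale was 0.872, 1.16 and 0.979 among controls, against 0.813 (knockout 0) and 1.27 (knockout 1). The lowest of the 8 in knockout 0 was at 0.680, above Cdkn1c. The slit diaphragm gene Nphs1 had 5.375, 8.06 and 6.31 FPKM among controls, against 5.43 (knockout 0) and 9.15 (knockout 1). Knockout 0 lay among the controls and knockout 1 above them. The podocyte transcription factor Wt1 had 4.01, 6.53 and 5.515 among controls, against 3.64 (knockout 0) and 6.89 (knockout 1). None of the 8 markers passed the test of both libraries (limma, 1 higher at an unadjusted p under 0.05), none was at 0, and their summed FPKM was 141.3 to 172.7 among controls, against 129.1 (knockout 0) and 180.0 (knockout 1). The part of podocyte content in the values of Cdkn1c was not tested.

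**Figure D4:**
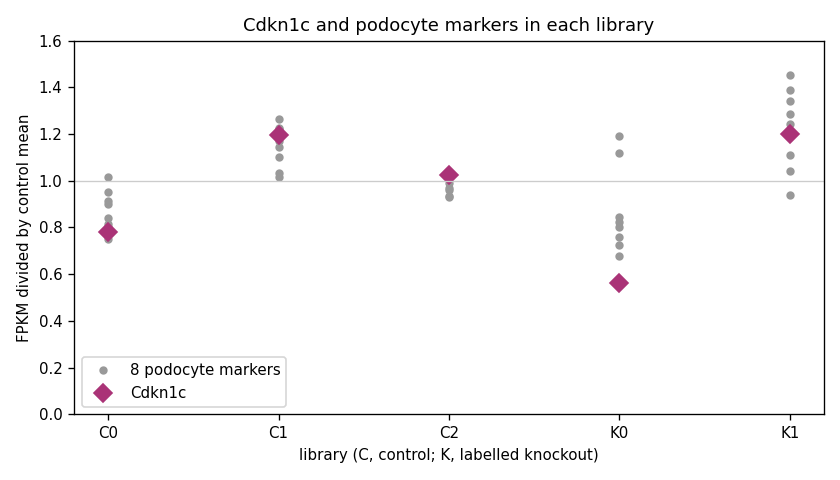
FPKM of Cdkn1c (diamonds) and of 8 podocyte markers (grey points) in each library, each divided by its own control mean. Cdkn1c is at 0.562 in knockout 0, under all 8 markers, and at 1.20 in knockout 1, among them.

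The order of levels was nearly the same in both groups. By mean FPKM the controls ran from Ccnd1 (75.6) through Cdk4 (53.4), Ccnd3 (45.9), Cdkn1b (26.3), Cdkn1c (14.2), Cdkn2c (12.6), Ccnd2 (2.93), Cdk6 (1.94) and Ccne1 (0.309) to Ccne2 (0.272). Neighbours whose ranges overlapped were Cdkn1c with Cdkn2c, and Ccne1 with Ccne2. In the knockout libraries Cdkn2c (mean 17.3) came before Cdkn1c (12.5), again with overlapping ranges, and the order was otherwise the same. Cdkn2c made up 22.35% to 25.6% of the summed FPKM of the 3 inhibitors among controls, against 41.0% (knockout 0) and 25.9% (knockout 1). The ratio of summed D cyclins to summed inhibitors was 2.51, 2.18 and 2.36 among controls, against 3.86 (knockout 0) and 3.06 (knockout 1). Both knockout libraries exceeded every control in that ratio, which is given with no test. The inhibitor sum leaves out Cdkn1a, a further CDK inhibitor gene outside the set. Its FPKM was 9.09 to 11.01 among controls, against 26.7 (knockout 0) and 16.8 (knockout 1).

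Other genes of the pathway were read from the same fit. Of 4 tested further CDK inhibitors and CDK-binding proteins 1 rose and 0 fell, against 2.73% and 3.62% of all tested rows. That 1 was Cdkn1a, which encodes p21, at 9.75, 9.09 and 11.01 FPKM among controls, against 26.7 (knockout 0) and 16.8 (knockout 1) (log2 difference 1.03, SE 0.199, limma adjusted p = 0.0471). The call of Cdkn1a was lost with no filter on low rows (adjusted p = 0.0843). Cdkn2b, the INK4 gene for p15, had 2.80, 2.72 and 2.80 among controls, then 2.15 and 2.42 for knockouts 0 and 1, and did not pass (adjusted p = 0.196).

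Of 11 tested RB, E2F and DP genes 0 passed by limma, with 1 higher and 1 lower at an unadjusted p under 0.05, and their median log2 difference was 0.08. Rb1 itself had an FPKM of 12.4, 13.0 and 11.1 among controls, against 13.7 (knockout 0) and 16.8 (knockout 1) (adjusted p = 0.160). Of 13 tested genes that regulate or partner CDK1 and CDK2, 0 passed by limma, with 1 higher and 1 lower at an unadjusted p under 0.05, and 10 were above every control in knockout 0 (34.2% of all rows) and 1 in knockout 1 (38.4% of all rows). Of 7 tested DREAM and MYB-MuvB genes 0 passed by limma, with 2 lower at an unadjusted p under 0.05.

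The 19 tested replication genes under E2F control gave 1 call in each direction, against 2.73% higher and 3.62% lower of all tested rows. Rrm1, the large subunit of ribonucleotide reductase, was higher, with 4.73, 6.23 and 5.20 FPKM among controls, then 11.3 and 9.64 for knockouts 0 and 1 (limma adjusted p = 0.0306, and 0.0603 with no filter, where the call was lost). The median log2 difference of the list was 0.63 in knockout 0 and 0.10 in knockout 1, and 16 and 7 of the 19 were above every control. Over all tested rows these shares were 34.2% and 38.4%, so the 7 of 19 in knockout 1 is near the share of all rows.

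Among 16 tested regulators upstream of D cyclins and p27, 3 rose and 0 fell, against 2.73% and 3.62% of all tested rows. All 3 encode AP-1 subunits, the dimers that bind growth-responsive promoters. Of the other AP-1 genes listed, Jund lay above every control in both knockout libraries but did not pass (limma adjusted p = 0.193). Fosl1 failed the filter on low values. Fos had an FPKM of 1.28, 1.80 and 1.13 among controls, then 7.54 and 11.2 for knockouts 0 and 1 (log2 difference 2.09, SE 0.195, limma adjusted p = 0.0127). Jun had 10.5, 9.86 and 11.8 among controls, then 27.7 and 20.7 for knockouts 0 and 1 (adjusted p = 0.0255). Junb had 8.60, 8.82 and 8.665 among controls, then 28.04 and 17.5 for knockouts 0 and 1 (adjusted p = 0.0307), and its call was lost with no filter (adjusted p = 0.0603). Over all the pathway lists 5 genes were called higher, and the same count was 0, 1 and 0 without control 0, 1 and 2 and 34 without knockout 1. Fos was higher in knockout 1 than in knockout 0, and Jun and Junb the reverse.

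Of 15 tested genes for the turnover of G1 cyclins and p27, 0 passed by limma, with 0 higher and 5 lower at an unadjusted p under 0.05, against 12.5% and 16.6% of all tested rows. Their median log2 difference was -0.12, and 9 of the 15 lay below every control in both knockout libraries, against 26.3% of all tested rows. Skp2, which marks p27 for destruction, had 1.25, 1.601 and 1.45 FPKM among controls, then 1.40 and 1.38 for knockouts 0 and 1, which overlap. Of 12 other cyclins and 13 other cyclin-dependent kinases 0 passed by limma, with 1 cyclin lower and 1 kinase higher at an unadjusted p under 0.05, and the medians were -0.04 and 0.02.

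**Figure D5:**
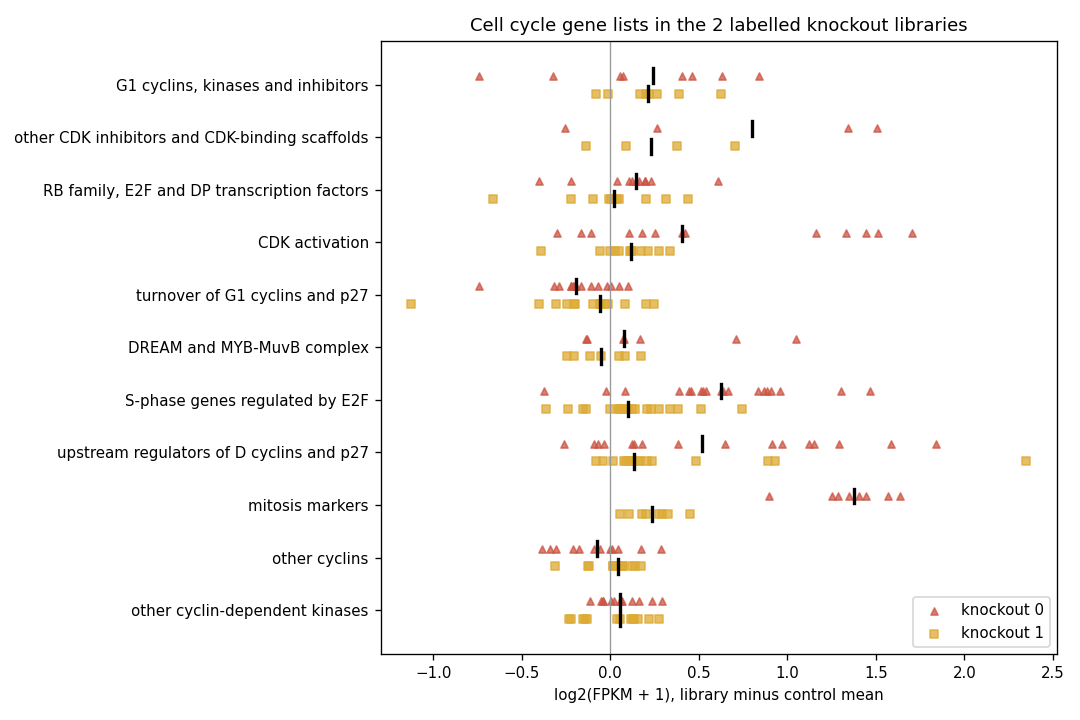
Log2(FPKM + 1) of each tested gene minus its control mean, by list, for knockout 0 (triangles) and knockout 1 (squares), with black bars for the medians. The mitosis markers have a median of 1.38 in knockout 0 and 0.24 in knockout 1, whereas the G1 genes have 0.24 and 0.21.

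The genes whose profiles over the 5 libraries lay closest to those of the 2 cyclins that passed were found by the root mean square difference of centred log2(FPKM + 1) among 11893 other genes. For Ccnd1 these were Lbh (0.0339), Ier5 (0.0498) and Tnfsf13b (0.0589). Lbh had an FPKM of 11.9, 12.4 and 13.5 among controls, then 22.3 and 19.4 for knockouts 0 and 1. For Ccnd2 they were Samd4 (0.0132), Lix1l (0.0170) and Nrp2 (0.0194), the last a receptor for semaphorins and VEGF. Nrp2 had 2.73, 2.80 and 2.97 among controls, then 4.23 and 4.02 for knockouts 0 and 1. With 5 libraries such likeness is a description only.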

How the data were processed

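RNA from whole kidneys was sequenced after TRIzol extraction, with 1 µg per library and an Illumina mRNA kit, per the labels' protocols. The deposited table holds FPKM as computed by the authors. Per the submitters' processing notes bcl2fastq and mm10 were used, while for aligner, FPKM program, annotation and strandedness the entry is: not given in the sources used here. Among columns, 0 were unmapped. The 3 control and 2 knockout libraries were grouped by title. The 12640 of 23997 rows whose mean reached 1 FPKM were tested as log2(FPKM + 1) with limma 3.58.1 in R 4.3.3 (two-sided, variance trend, Benjamini-Hochberg adjustment over all rows, threshold 0.05). Fold changes on that scale understate the change of low genes. The fit was tested on simulated data, in which each gene's noise was independent and of equal size in every library. Shifts shared by many genes, such as those that set knockout 0 apart from knockout 1, were not simulated. The counts that follow may therefore be too favourable for these data. Of 50 genes changed by a log2 size of 0.5 it called 13, and of 50 changed by 1 it called 46. It also called 12 unchanged genes. Differences of about 0.5 or less can therefore often be missed. Exact 0 values occurred in 87 tested rows.

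Depth was estimated from the most frequent low value of FPKM times length in annotated genes with a single transcript. Positions come from GENCODE M21. Of the 23997 row names 22627 occur once there. Members, lists and the rule for named genes (all members, up to 4 passing genes per list, Mki67, Cdkn1a, Pkd1, Nphs1 and Wt1, and the 3 nearest profiles of 2 members) were chosen with earlier results of these data known. Not every gene named by that rule is reported here. Rb1, Myc, Jund, Fosl1, Skp2, Cdkn2b, Havcr1, Xist, Gapdh, Lrp2, Slc12a1, Aqp2 and the opposite-strand genes were named after their values were seen. Alternatives were another pseudocount (0.1), filter, scaling, variance model, the replicate block, rows with a 0 left out and each library left out. Python 3.11.15, pandas 2.3.3 and matplotlib 3.10.9 handled tables and plots.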

Additional observations from a re-analysis of the deposited data

How the results depend on the processing

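The count of 2 members called higher was 1 with no filter, at a mean FPKM of at least 5 (where Ccnd2 was not tested) and after quantile normalization, 0 with the replicate block, and 0 to 3 when single libraries were left out (0 without each control, 1 without knockout 0). Under the replicate block the adjusted p was 0.196 for Ccnd1 and 0.326 for Ccnd2 by limma. Because no knockout library carries number 2, control 2 added nothing to the difference in that fit. Its log2 differences were those of the fit without control 2, at 0.79 for Ccnd1 and 0.415 for Ccnd2. These settings are therefore not separate checks, and the lost calls cannot show whether pairing mattered. Deviations of same-numbered libraries correlated at 0.086 and 0.002. With 2 knockout libraries these deviations mirror each other, and control 0 gave 0.086 with knockout 0 and -0.086 with knockout 1. The correlations therefore cannot show whether same-numbered libraries were paired. No member was called lower under any of the 15 alternatives by limma. The number of genes called over all rows, 802, was 482 with no filter and 28 with the block, and 36 to 2599 with single libraries left out (37, 155 and 36 without control 0, 1 and 2). The 345 higher and 457 lower rows became 454 and 266 on the TPM scale. Of the 117 tested pathway genes 5 were called higher, against 2 with no filter, 0 with the block and 0 to 34 with single libraries left out. The count of 1 lower was 0 when rescaled to TPM, 0 with the block and 0 to 1 with single libraries left out.

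The log2 difference of Ccnd1 stayed positive, from 0.62 to 0.86, under all 15 alternatives, and that of Ccnd2 from 0.30 to 0.52 under 14. Of the 8 tested members Cdk4 and Cdkn1c changed sign, each without knockout 0. With single libraries left out, Cdk4 ran from -0.014 to 0.459 and Cdkn1c from -0.741 to 0.264. The cause was not tested. With 3 against 2 libraries no single gene can reach an exact p below 0.1.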
